A study of Mus musculus with 5 samples.

Results

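The genes described here are the 10 Notch receptors, ligands and target genes that were chosen by symbol from the 23997 rows of a gene FPKM table of mouse whole kidney: the receptors Notch1, Notch2, Notch3 and Notch4, the ligands Jag1, Jag2, Dll1 and Dll4, and the target genes Hes1 and Hey1. All 10 symbols were found, each on 1 row. There are 5 libraries, of which 3 carry the genotype label of uninduced controls (control 0, 1 and 2) and 2 the genotype label Pkd1 knockout (knockout 0 and 1, titled SKO). The series' design text names the mutants PkdTKO. All libraries came from mice aged 8 weeks. The inducing agent, the driver of the deletion, the strain and the number of animals behind each library are not stated in the labels, so every p-value reflects the scatter among these libraries, part of which may be technical.

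Notch receptors are membrane proteins that are activated by Jagged or Delta-like ligands on a neighbouring cell. Binding lets the sheddase ADAM10 and then gamma-secretase cut the receptor, and the freed intracellular part enters the nucleus, where it joins the DNA-binding protein RBPJ and a Mastermind coactivator to switch on genes such as Hes1 and Hey1. In the kidney the pathway is known for patterning the proximal nephron, for setting the balance of principal and intercalated cells in the collecting duct and for its roles in vessel walls.

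In both knockout libraries Notch1, Notch3, Jag1 and Hes1 were above every control, by between 1.07-fold and 1.57-fold of the control mean. Of all tested genes, 21.9% were above and 26.3% below every control in both knockout libraries. None of the 9 members tested passed, against 6.34% of all tested genes. Notch4, Dll1 and Dll4 lay within or close to the control range in both knockout libraries. Notch2, Jag2 and Hey1 differed between knockout 0 and knockout 1 more than the groups did. FPKM, fragment counts divided by transcript length and by the mapped fragments of the library, were compared as log2(FPKM + 1) by limma, with Benjamini-Hochberg adjustment over 12640 rows whose mean FPKM was 1 or more, and an adjusted p under 0.05 counted as passing. Hey1, with a lower mean, was not tested.

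The libraries differed in ways other than the label, and these differences touch every comparison below. Pkd1 FPKM ran from 3.22 to 3.51 over the controls, with 2.72 for knockout 0 and 3.60 for knockout 1, so the level of the targeted gene does not check the labels. Xist, the X-inactivation transcript, was at 0.0222 to 0.0275 over the controls, against 30.8 for knockout 0 and 80.3 for knockout 1. The Y-linked Ddx3y was at 17.8 to 18.6, 7.30 and 0.00194, so sex of the RNA and genotype cannot be told apart. Knockout 0 held both transcripts and knockout 1 almost no Ddx3y, so differences between these 2 libraries cannot be told apart from sex of the RNA either. Apparent depth, read from the steps between low FPKM values, was 2.38 times as high in knockout 1 as in knockout 0, with the controls at 1.19 to 1.94 times knockout 0. Tubule markers fixed for the check were present (Aqp1, the water channel of proximal tubule, 415.2 to 464.6 in the controls, Slc12a1, the salt transporter of the thick ascending limb, 195.7 to 291.5, and Aqp2, the water channel of principal cells, 282.7 to 337.1), while the proximal markers Slc34a1 and Lrp2 were listed at 0 in all 5 libraries and Umod in the 3 controls. No member was listed at 0.

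The upstream sequences of 2 members are shown, from the RefSeq promoter table (GRCm38.p6), to give the regulatory context of the receptor with the smallest adjusted p and of a ligand whose groups overlapped. Each is the 250 bases before the start in that table, 5′ to 3′ on the gene's strand. For Notch3 this start lies upstream of the GENCODE start given below (32166852). Capitals mark the GC box GGGCGG, the binding letters of Sp1-like factors, on either strand. The Notch3 stretch is chr17:32166891-32167140 (minus strand, 4 GC boxes) and the Dll4 stretch is chr2:119325534-119325783 (plus strand, 2 GC boxes).
Notch3: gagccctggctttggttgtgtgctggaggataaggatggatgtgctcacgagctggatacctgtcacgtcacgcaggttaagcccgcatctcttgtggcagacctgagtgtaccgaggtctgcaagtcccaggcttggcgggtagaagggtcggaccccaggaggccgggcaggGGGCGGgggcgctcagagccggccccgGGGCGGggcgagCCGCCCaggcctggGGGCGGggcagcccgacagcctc
Dll4: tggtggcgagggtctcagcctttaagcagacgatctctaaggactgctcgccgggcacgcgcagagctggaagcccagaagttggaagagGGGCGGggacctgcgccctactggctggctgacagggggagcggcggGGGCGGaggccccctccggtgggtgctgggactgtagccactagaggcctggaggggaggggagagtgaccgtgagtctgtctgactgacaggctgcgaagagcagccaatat

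The promoter table matched 8 of the 10 members with 9 windows (Dll1 has 2), and Hes1 and Hey1 were not matched. In these 300-base windows the RBPJ letters GTGGGAA, searched on both strands, occurred in 0 of 8 members, against 6.38% of all 32851 windows. Their core TGGGAA, which lies inside GTGGGAA, also occurred in 0 of 8, against 25.6% of all windows. The GC box occurred in 5 of 8 members (Notch1, Notch2, Notch3, Jag2 and Dll4), against 35.7% of all windows. In the 250 upstream bases, GC content was 56% to 87.2% over the 9 member windows, against a median of 52.4% over all windows. The GC box share was not compared with windows of like GC content. The E-box CACGTG, letters that Hes and Hey proteins can bind, occurred in 0 of 8, against 7.15%. The GC box and the E-box were chosen after the FPKM values were seen.

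The levels of the 10 genes, which FPKM sets per length, fell into 5 steps. Hes1 stood highest, at 23.3 ± 1.95 (SD, n = 3) in the controls, and its lowest library was above the highest library of every other member. Notch2 and Jag1 followed at 7.61 ± 0.811 and 7.29 ± 0.422, and their control ranges overlapped. Notch4, Dll1, Dll4, Notch1 and Notch3 came next, at 3.14, 3.08, 2.90, 2.77 and 2.44, and in this run each gene overlapped its neighbour. Jag2 at 1.53 ± 0.108 and Hey1 at 0.605 ± 0.138 were the lowest 2 and overlapped neither each other nor the gene above. The plot of FPKM by library shows these steps.

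**Figure D1:**
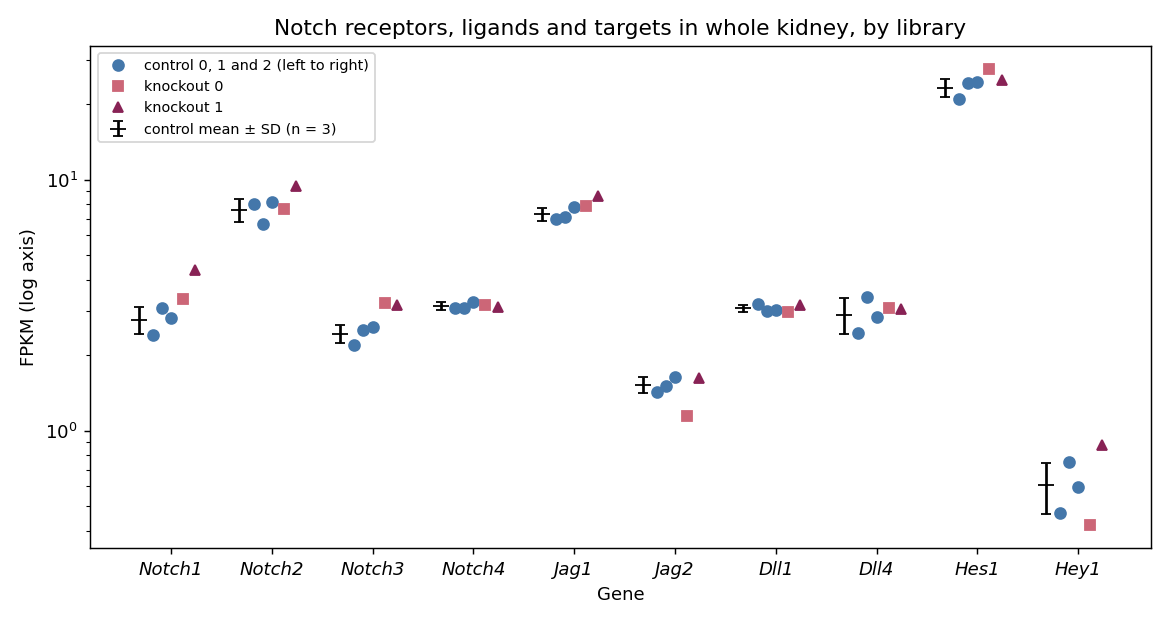
FPKM (log axis) of the 10 Notch genes in each library, with the mean ± SD of the 3 controls at the left of each gene. Both knockout libraries lie above all controls for Notch1, Notch3, Jag1 and Hes1, and on opposite sides of the control mean for Jag2 and Hey1.

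Among the receptors, Notch1 and Notch3 were higher in both knockout libraries than in any control, and Notch4 lay inside the control range. Notch1, a receptor of endothelium, lymphocytes and developing epithelium, measured 2.40, 3.09 and 2.83 FPKM across control 0, 1 and 2, against 3.34 (knockout 0) and 4.36 (knockout 1). The groups did not overlap, but knockout 0 stood closer to control 1 than to knockout 1. On the log2 scale the groups differed by 0.36 (SE 0.135, 95% interval from 0.02 to 0.70), which did not pass (limma adjusted p = 0.157, exact permutation p = 0.1, the smallest that 3 against 2 libraries allow). It was 0.51 without knockout 0 and 0.20 without knockout 1, and the adjusted p ranged from 0.0742 to 0.365 over the 14 alternatives that gave a value.

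Notch3, the receptor of vascular smooth muscle and pericytes, measured 2.20, 2.52 and 2.59 FPKM across control 0, 1 and 2, against 3.23 (knockout 0) and 3.17 (knockout 1). Here the 2 knockout libraries lay close together and above all controls. On the log2 scale the groups differed by 0.29 (SE 0.0916, with a 95% interval from 0.06 to 0.52, limma adjusted p = 0.114, exact permutation p = 0.1). This was the smallest adjusted p of the 9 tested members, and over 14 alternatives it ranged from 0.0920 to 0.393.

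Notch2, the receptor that nephron progenitors need to form proximal tubule, measured 8.03, 6.68 and 8.12 FPKM across control 0, 1 and 2, against 7.62 (knockout 0) and 9.44 (knockout 1). Only knockout 1 was above the controls, and knockout 0 lay among them. On the log2 scale the groups differed by 0.14 (SE 0.125, with a 95% interval from -0.17 to 0.46, limma adjusted p = 0.489), and without knockout 1 it was 0.0053. Notch4, a receptor largely of endothelium, measured 3.08, 3.09 and 3.27 FPKM across control 0, 1 and 2, against 3.16 (knockout 0) and 3.11 (knockout 1). Both knockout libraries lay inside the control range, and the groups differed by -0.0023 on the log2 scale (SE 0.0771, 95% interval from -0.20 up to 0.19, limma adjusted p = 0.989), with a sign that turned under 5 of 14 alternatives.

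The 4 receptors summed to 15.4 to 16.8 FPKM over the controls, against 17.3 for knockout 0 and 20.1 for knockout 1. Within that sum Notch2 held the largest share in every library, 43.4% to 51.1% over the controls, against 43.9% for knockout 0 and 47.0% for knockout 1. Notch4 held 19.4% to 20.1% in the controls and less in both knockout libraries, 18.2% and 15.5%. Notch1 held 15.3% to 20.1%, 19.2% and 21.7%, with knockout 0 inside the control range, and Notch3 held 14.0% to 16.4%, 18.6% and 15.8%, with knockout 1 inside it. These shares describe how the receptors divide the signal and were not tested.

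Among the ligands Jag1 alone was above every control in both knockout libraries. Jag1, the ligand best known from Alagille syndrome, measured 6.96, 7.13 and 7.76 FPKM across control 0, 1 and 2, against 7.87 (knockout 0) and 8.64 (knockout 1). The margin between knockout 0 and control 2 was narrow. On the log2 scale the groups differed by 0.16 (SE 0.0801, with a 95% interval from -0.04 to 0.36, limma adjusted p = 0.249, exact permutation p = 0.2). Without knockout 1 it was 0.10.

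Jag2, the second Jagged ligand, measured 1.43, 1.51 and 1.64 FPKM across control 0, 1 and 2, against 1.14 (knockout 0) and 1.62 (knockout 1). Knockout 0 was below all controls and knockout 1 among them (log2 -0.09, 95% interval -0.41 to 0.23, limma adjusted p = 0.672), and without knockout 0 the difference was 0.05. Dll1, a ligand that activates Notch during nephron segmentation, measured 3.20, 2.9995 and 3.03 FPKM across control 0, 1 and 2, against 2.98 (knockout 0) and 3.17 (knockout 1). The 5 values spanned a narrow band and the 95% interval was -0.20 to 0.20 (limma adjusted p = 0.998).

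Dll4, the ligand of arterial and sprouting endothelium, measured 2.46, 3.41 and 2.84 FPKM across control 0, 1 and 2, against 3.09 (knockout 0) and 3.05 (knockout 1). Both knockout libraries lay inside the control range, which was the widest of the ligands relative to its mean (log2 0.07, 95% interval -0.24 to 0.38, limma adjusted p = 0.749). Of the ligands' summed FPKM, Jag1 held 47.4% to 50.8% over the controls, 52.2% of knockout 0 and 52.4% of knockout 1, and Jag2 held 10.04% to 10.8%, 7.58% and 9.81%. Dll1 held 19.85% to 22.7%, 19.77% and 19.2%, and Dll4 17.5% to 22.6%, 20.5% and 18.5%. The Jag1 share was thus above all controls in both knockout libraries, those of Jag2 and Dll1 were below all controls, Dll1 by a narrow margin, and that of Dll4 lay inside the control range. The bars of receptor and ligand shares give all 8 genes.

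**Figure D2:**
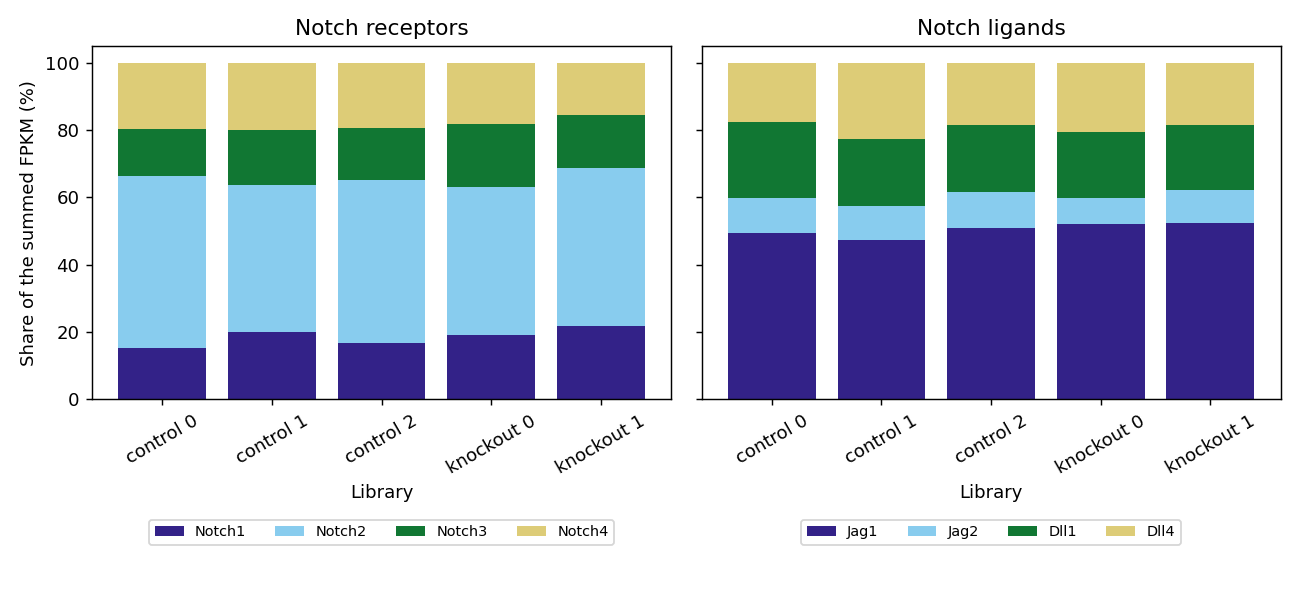
Share (%) of each gene in the summed FPKM of the 4 receptors (left) and of the 4 ligands (right), 1 bar per library. Notch2 and Jag1 take the largest share in each library, and the Notch4 share is 18.2% and 15.5% in knockout 0 and 1 against at least 19.4% in the controls.

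Of the target genes Hes1 was above every control in both knockout libraries, and Hey1 was too scarce to test. Hes1, a basic helix-loop-helix repressor and direct Notch target, measured 21.1, 24.3 and 24.6 FPKM across control 0, 1 and 2, against 27.7 (knockout 0) and 25.0 (knockout 1). Both knockout libraries were above every control, knockout 1 by a margin far smaller than the spread of the controls. On the log2 scale the groups differed by 0.17 (SE 0.0976, with a 95% interval from -0.08 to 0.41, limma adjusted p = 0.303, exact permutation p = 0.2). It was 0.10 without control 0 and 0.097 without knockout 0. Hey1, a related repressor and target in endothelium, measured 0.472, 0.747 and 0.597 FPKM across control 0, 1 and 2, against 0.419 (knockout 0) and 0.880 (knockout 1). The knockout libraries lay on either side of all controls, and with no filter on low values the log2 fold change was 0.03.

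Counted over the group, 0 of the 9 tested members passed by limma, against 6.34% of all 12640 tested genes, 2.73% higher and 3.62% lower. At an unadjusted p under 0.05, 2 were higher (Notch1 and Notch3) and 0 lower, where 12.5% of all genes were higher and 16.6% lower. Both knockout libraries were above every control for 4 members and below every control for 0, against 21.9% and 26.3% of all genes (48.2% without overlap in either direction). The median log2 fold change of the 9 members was 0.14 and that of all tested genes -0.02. The 9 intervals together ran from -0.41 to 0.70, so no interval reached a 2-fold difference on the log2(FPKM + 1) scale, which understates the change of low genes. The signs for Notch1, Notch2, Notch3, Jag1 and Hes1 were positive under every alternative that was run, rescaling to TPM, median-of-ratios scaling and quantile normalization included. Those of Notch4, Dll1, Dll4 and Jag2 turned under at least 1.

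**Figure D3:**
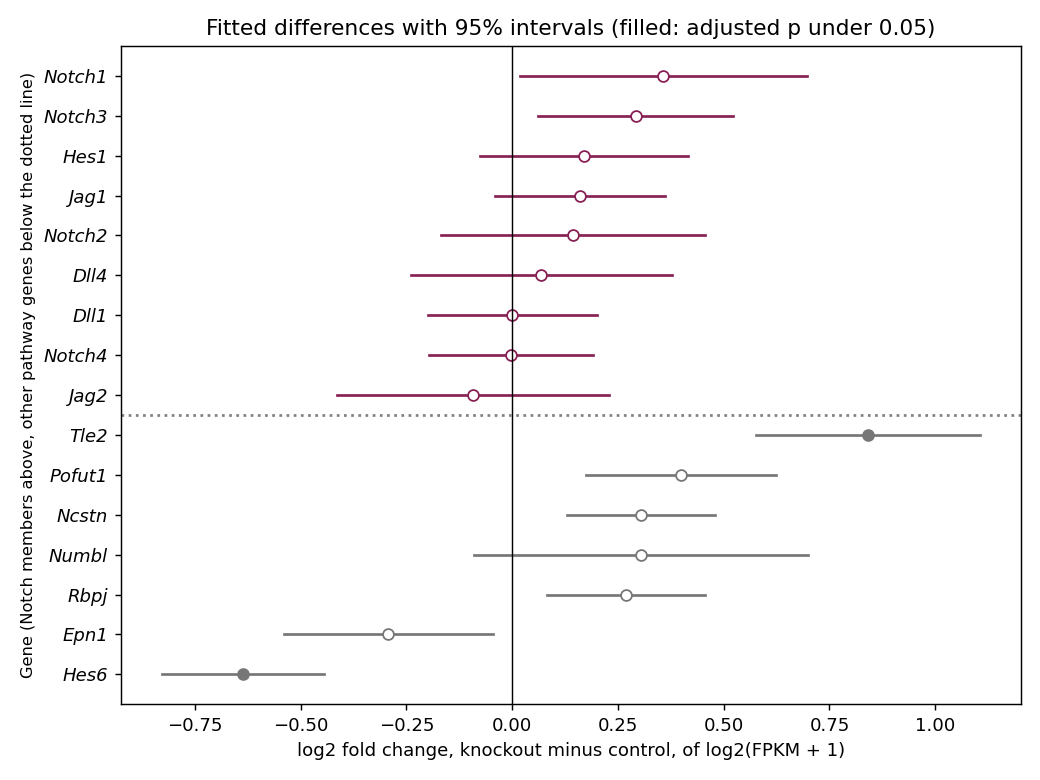
Fitted log2 fold change (knockout minus control, log2(FPKM + 1)) with its 95% interval for the 9 tested Notch genes (above the dotted line) and 7 other pathway genes (below it); filled points passed. The intervals of Notch1 and Notch3 lie above 0 without passing after adjustment, and only Tle2 and Hes6 are filled.

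Outside the 10 members, the rest of the pathway held 1 gene that rose and 1 that fell. Of 56 further genes, 45 were tested, 1 was higher, 1 lower and 43 did not pass, against the same 2.73% and 3.62%. Their median log2 fold change was 0.04. Tle2, a Groucho-type corepressor that Hes proteins recruit, measured 6.81, 8.44 and 7.87 FPKM across control 0, 1 and 2, against 13.8 (knockout 0) and 15.3 (knockout 1). Both knockout libraries were well above the controls, and Tle2 rose by 0.84 on the log2 scale (SE 0.105, limma adjusted p = 0.0236). Hes6, a Hes family protein that counteracts Hes1, measured 43.5, 41.2 and 44.2 FPKM across control 0, 1 and 2, against 28.6 (knockout 0) and 26.0 (knockout 1). It fell by 0.64 on the log2 scale (SE 0.0765, limma adjusted p = 0.0215), with both knockout libraries below all controls. Neither passed without control 0, 1 or 2 (limma adjusted p of 0.110, 0.0615 and 0.160 for Tle2 and 0.124, 0.0684 and 0.164 for Hes6), and over the 15 alternatives the ranges were 0.0192 to 0.173 and 0.0166 to 0.209.

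In the 5 other steps of the pathway that had tested genes, the gene with the smallest adjusted p did not pass. For the step of ligand uptake, Epn1, an epsin of ligand-sending cells, was at 119.6 ± 10.5 FPKM (SD, n = 3) across controls, against 94.0 (knockout 0) and 100.6 (knockout 1) (limma adjusted p = 0.129), with both knockout libraries below all controls. Pofut1, which adds fucose to the EGF-like repeats of the receptors, was at 5.13 ± 0.116, 6.48 and 7.73 (adjusted p = 0.0625). Ncstn, the nicastrin subunit of gamma-secretase, was at 29.1 ± 0.976, 37.2 and 35.2 (adjusted p = 0.0642), and passed when each library was rescaled to TPM (0.0437). Rbpj was at 8.34 ± 0.262, 10.8 and 9.72 (adjusted p = 0.0913). In each of these last 3 genes, which were picked by their adjusted p, both knockout libraries were above all controls. Of the 45 tested pathway genes, 15 were above and 6 below every control in both, against 21.9% and 26.3% of all genes. Numbl, a Numb-like inhibitor of Notch, was at 1.22 ± 0.290, 1.94 and 1.52 (adjusted p = 0.258).

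The size of the difference in other pathway genes depended on which knockout library was used. Pofut1 differed by 0.51 on the log2 scale without knockout 0 and by 0.29 without knockout 1. For Ncstn the values were 0.27 and 0.35, for Rbpj 0.20 and 0.34 and for Tle2 0.91 and 0.77. Heyl, another Hey gene, which was named after its values were seen, measured 1.20, 1.40 and 1.32 FPKM across control 0, 1 and 2, against 2.52 (knockout 0) and 1.83 (knockout 1) (limma adjusted p = 0.101 with both). With both knockout libraries 802 of all 12640 tested genes passed in either direction, of which 345 were higher. The scatter of knockout 0 against knockout 1 shows Notch3, Tle2 and Hes6 near the line of equal difference and Notch1 and Notch2 above it.

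**Figure D4:**
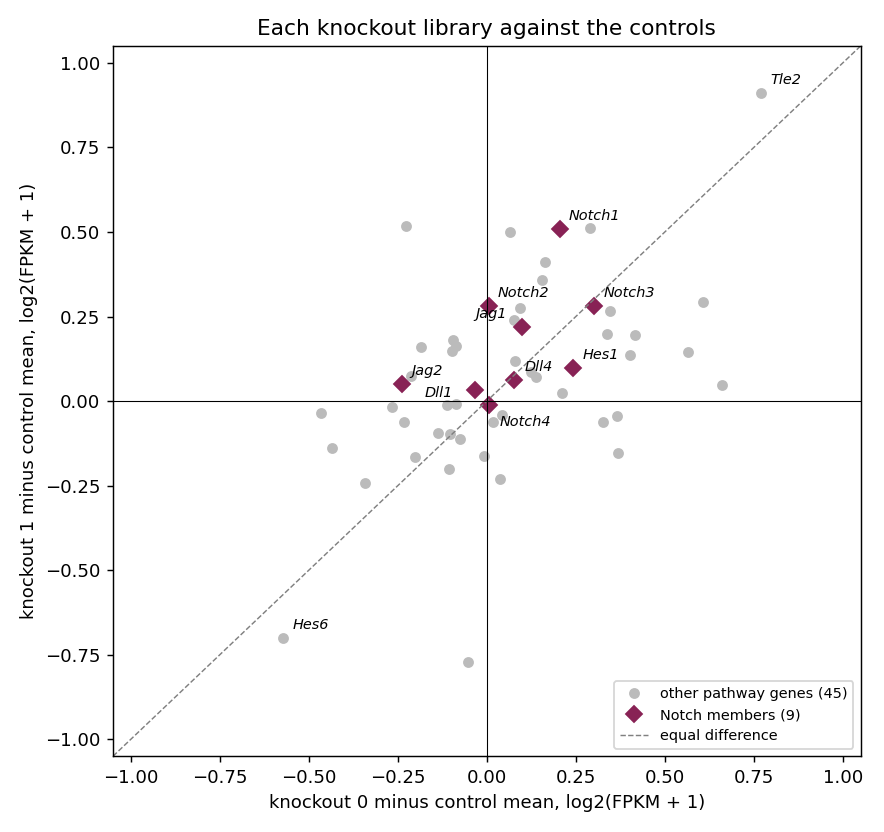
Difference of knockout 0 (horizontal) and of knockout 1 (vertical) from the control mean, in log2(FPKM + 1), for the 9 tested Notch genes (diamonds) and 45 other tested pathway genes (grey). Tle2 and Hes6 are named because they passed; Notch1 is at 0.20 and 0.51, and Notch3 at 0.30 and 0.28.

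The 4 other ligands, and the other Hes and Hey genes apart from Hes6 and Heyl, were scarce and fell under the filter. Dll3, Dner, Hes3 and Hes5 were under 0.1 FPKM in every library, and Hes3 and Hes5 were listed at 0 in control 0 and knockout 0. The non-canonical ligand Dlk1 was at 0.162, 0.222 and 0.231 FPKM across control 0, 1 and 2, against 0.0906 (knockout 0) and 0.0594 (knockout 1). Both knockout libraries were below all controls there, at levels under the filter. Hey2, another Hey gene, was at 0.838, 1.00 and 0.814, 0.573 and 1.11, which repeats the low knockout 0 and high knockout 1 seen for Hey1.

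Markers of the cells that carry these receptors also differed between libraries, and in whole-kidney RNA a change in the number of cells of a type and a change in RNA per cell cannot be told apart. The 10 endothelial markers summed to 243.0 to 251.4 FPKM over the controls, against 271.2 for knockout 0 and 261.4 for knockout 1, with 3 of 10 above every control in both (21.9% of all genes) and 0 passing by limma (2 higher at an unadjusted p under 0.05, against 12.5% of all genes). Plvap, the most abundant, was at 80.6 ± 1.24 (SD, n = 3), 84.7 and 79.8. The 10 mural cell markers, of smooth muscle and pericytes, summed to 70.7 to 90.3, 159.2 and 90.5. Both knockout libraries were above every control for 4 of 10 (21.9% of all genes) and below for 1, Kcnj8 (26.3%). At an unadjusted limma p under 0.05, 4 were higher (12.5%) and 0 lower (16.6%). By limma 1 of 10 rose (2.73%), the pericyte proteoglycan gene Cspg4 (3.29 ± 0.292, 5.18 and 5.25, limma adjusted p = 0.0369). Cspg4 did not pass without control 0, 1 or 2 or without knockout 0 (0.0507), with a range of 0.0333 to 0.251 over 14 alternatives. Tagln, the most abundant mural marker, was at 21.2 ± 3.93, 59.9 and 23.7. The log2 fold change was positive for 7 of 10 mural markers and negative for Myh11 (-0.37), Cnn1 (-0.29) and Kcnj8 (-0.32).

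The 7 macrophage and leukocyte markers in the table summed to 75.5 to 85.7 over the controls, against 321.0 for knockout 0 and 112.5 for knockout 1, and the 8 injured tubule markers to 116.1 to 125.1, 468.9 and 119.9. The most abundant of each list in the controls, Csf1r and Krt8, were at 23.3 ± 2.07 (SD, n = 3), 28.8 and 26.7 and at 78.8 ± 1.55, 103.8 and 70.5. Other members of the lists, named after their values were seen, differed more. The lysozyme gene Lyz2 was at 15.7 ± 2.23 (SD, n = 3), 102.5 and 32.9, and Havcr1, which encodes the injury marker KIM-1, at 0.937 ± 0.203, 137.4 and 0.593. Neither passed (limma adjusted p = 0.0768 and 0.326). Of 6 tested macrophage and leukocyte markers 0 passed by limma, and 3 were higher at an unadjusted p under 0.05 (12.5% of all genes). In both knockout libraries 6 of 6 were above every control (21.9% of all genes). Cdkn1a, the cell cycle inhibitor p21 the only 1 of 7 tested injury markers that passed (2.73% of all genes were higher), measured 9.75, 9.09 and 11.0 FPKM across control 0, 1 and 2, against 26.7 (knockout 0) and 16.8 (knockout 1) (limma adjusted p = 0.0471). It passed under 7 of 15 alternatives, with a range of 0.00595 to 0.205, and not without control 0, 1 or 2 (0.178, 0.131 and 0.188). Both sums were highest in knockout 0, and the macrophage sum was above all controls in knockout 1 too. Hes1 was likewise highest in knockout 0, Notch1, Notch2 and Jag1 were highest in knockout 1 and Notch3 was about equal in both. The 6 podocyte markers summed to 104.1 to 135.0, 95.7 and 142.7 (Podxl 51.1 ± 4.84, 38.7 and 63.7), below all controls in knockout 0 and above them in knockout 1. No endothelial, mural, podocyte, macrophage or injury marker in the table was listed at 0. The part of these cell types, of the sex of the RNA and of depth in the Notch values was not tested.

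The genes whose centred log2(FPKM + 1) profiles over the 5 libraries lay nearest to Notch3 were Csnk1e, Smtn and Rnf219, at Euclidean distances of 0.036, 0.043 and 0.048. Nearest to Notch1, the tested member with the largest difference between the knockout libraries, were Sema3b, Igfbp7 and Tmem136, at 0.060, 0.064 and 0.071. Over 5 libraries and 12640 rows such neighbours are a description only.

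The members are protein-coding genes spread over 5 chromosomes (mm10, GENCODE M21): Notch1 (chromosome 2, 26457903 to 26516663), Dll4 (chromosome 2, 119325784 to 119335962), Jag1 (chromosome 2, 137081456 to 137116644), Notch2 (chromosome 3, 98013527 to 98150361), Hey1 (chromosome 3, 8663359 to 8667256), Jag2 (chromosome 12, 112907819 to 112929776), Hes1 (chromosome 16, 30064384 to 30067796), Dll1 (chromosome 17, 15367354 to 15376872), Notch3 (chromosome 17, 32120820 to 32166852) and Notch4 (chromosome 17, 34564268 to 34588503). Exons of Notch1, Notch3, Dll1 and Dll4 overlap non-coding genes of the opposite strand and those of Notch2 an unclassified transcript of the same strand. Since the strandedness of the counting is not given, reads of these pairs cannot be told apart, and the values of these 5 genes are uncertain to that extent. Of the overlapping genes only Gm14207, opposite Dll4, was found by symbol. It measured 0.848, 1.58 and 1.21 FPKM across control 0, 1 and 2, against 1.20 (knockout 0) and 1.82 (knockout 1). An exon of Gm14207 also lies in the Dll4 upstream stretch shown above.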

How the data were processed

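RNA from whole mouse kidneys was extracted with TRIzol and 1 µg per library was prepared with an Illumina mRNA-seq kit, per the labels' protocols. The authors deposited FPKM with 1 column per library (0 value columns unmapped). Per the submitters' processing notes, bcl2fastq and mm10 were used. No source used here names the aligner, quantifier, annotation or strandedness. Groups follow the genotype label and library numbers the titles.

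Differences in log2(FPKM + 1) were fitted over 12640 rows (mean FPKM at or above 1) by limma 3.58.1 in R 4.3.3 (variance trend, two-sided, Benjamini-Hochberg over all tested rows, threshold 0.05), and the code was tested on simulated data. Exact permutation p-values use all splits of 3 against 2 libraries. FPKM carry no depth; relative depth was read from the value of 1 step in genes with 1 transcript and FPKM under 0.06, and this relative depth assumes that the smallest step is 1 fragment in each library. Python 3.11.15 with pandas 2.3.3, numpy 2.4.6 and matplotlib 3.10.9 was used for tables and plots.

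Named were all 10 members, every other pathway gene that passed or else the smallest adjusted p of its step, and per marker list the most abundant gene of the controls; markers that passed and a few others were added after their values were seen. Members, lists and tests were chosen with earlier results of these data known. The 15 alternatives are given in the closing section.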

Additional observations from a re-analysis of the deposited data

How the results depend on the processing

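The count of members that passed was 0, higher or lower, under all 15 alternatives. Of the pathway genes, 1 was called higher and 1 lower. The count higher was 0 with no filter on low values, 2 after rescaling to TPM and 0 to 9 with each library left out, and the count lower was 0 to 1 with each library left out. The upper end of the range for the count higher came from the fit without knockout 1, which leaves a single knockout library. More of all tested genes passed in that fit too, in either direction, so its count is not read as specific to the pathway. With the replicate number as a block both pathway counts were 0, and 28 of all genes passed against 802. Same-numbered libraries correlated in their deviations by 0.0863 and 0.0024. With 2 knockout libraries their deviations mirror each other, so these values cannot decide whether libraries were paired. The numbers were not taken as pairs. Over all genes 247 passed with no filter (23997 rows tested), and 37, 155 and 36 without control 0, 1 and 2.

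Signs turned for 4 members with differences near 0. Dll1 (0.00042) was at -0.11 after quantile normalization, -0.0071 with the replicate block and -0.033 to 0.034 with each library left out. Dll4 (0.07) was at -0.045 after quantile normalization and -0.014 to 0.16 with each library left out. Notch4 (-0.0023) was at 0.068 in TPM, 0.018 with median-of-ratios scaling, 0.019 with the replicate block and -0.014 to 0.019 with each library left out. Jag2 (-0.09) was at -0.24 to 0.051 with each library left out. The cause was not tested. Of 162 values of the other named genes under an alternative, 31 lost a call, 6 gained one and 0 changed sign. These other genes were Tle2, Hes6, Pofut1, Ncstn, Rbpj, Epn1, Numbl, Heyl, Cspg4, Fxyd4 and Cdkn1a. Further non-members named in the text were not followed over the alternatives. At a mean FPKM of at least 5 only Notch2, Jag1 and Hes1 of the members were tested. The RBPJ letters and their core both occurred in 0 members. Hey1 and the 4 other ligands were under the filter, and the depth behind their FPKM is not given.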

Other observations

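Notch signalling is known to favour principal over intercalated cells in the collecting duct, and both marker lists were read from the same fit. The 8 intercalated cell markers had a median log2 fold change of -0.57 (-0.84 in knockout 0 and -0.28 in knockout 1), against -0.02 over all tested genes. By limma 0 of 8 passed (3.62% of all genes were lower), 0 were higher and 4 lower where p was left unadjusted (under 0.05, against 12.5% and 16.6% of all genes), and both knockout libraries were below every control for 4 of 8, against 26.3% of all genes. Slc4a1, the basolateral anion exchanger of acid-secreting cells, measured 14.7, 9.89 and 13.7 FPKM across control 0, 1 and 2, against 3.50 (knockout 0) and 8.82 (knockout 1), and Atp6v1g3, a proton pump subunit, had 35.9, 45.8 and 35.9, 19.4 and 27.8. Foxi1, the transcription factor that defines the lineage, had 14.7, 29.2 and 19.4, 12.2 and 15.9, so that knockout 1 lay inside the control range. Car2, which other tubule cells also express, was at 326.4 ± 45.96 (SD, n = 3), 357.5 and 372.9. These 3 genes other than Car2 were named after their values were seen.

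The 8 principal cell markers had a median log2 fold change of -0.07 (-0.30 in knockout 0 and 0.06 in knockout 1). Both knockout libraries were below every control for 3 of 8 (Aqp3, Fxyd4 and Avpr2), against 26.3% of all genes, and 2 of 8 were lower at an unadjusted p under 0.05, against 16.6%. Of the 8, 1 fell by limma (3.62% of all genes), the sodium pump regulator Fxyd4, at 96.9 ± 0.251 FPKM (SD, n = 3) across controls, against 77.6 (knockout 0) and 74.2 (knockout 1) (limma adjusted p = 0.0470), and the call was lost in TPM (0.0755). Without control 0, 1 and 2 it was lost as well (0.175, 0.122 and 0.219), and its adjusted p ranged from 0.0421 to 0.315 over 15 alternatives. Aqp2 was at 318.1 ± 30.7, 248.2 and 351.4, with knockout 0 below and knockout 1 above all controls. The difference between the 2 lists was not tested.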
